A study of Mus musculus with 4 samples.

Results

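The genes Rpe65, Rgr, Pmel, Lrat, Ttr, Tyr, Tyrp1, Dct, Best1 and Rdh5, which mark the retinal pigment epithelium, were followed in RNA of whole mouse retinas. They were taken by symbol, and all 10 were found among the 23278 genes of the deposited table. Whole retinas were collected at postnatal day 10 from mice of a mixed strain background with at least C57BL6 and 129 in it, and all mice, WT included, had been injected intraperitoneally at postnatal day 3 with 20 ug of 4HT (an active tamoxifen metabolite). The stabilized knockout library came from NdpKO;Ctnnb1flex3/+;Pdgfb-CreER mice, the knockout library from NdpKO mice, the stabilized library from Ctnnb1flex3/+;Pdgfb-CreER mice and the last from WT mice. NdpKO removes Norrin, the secreted ligand of Frizzled-4. The Ctnnb1flex3 allele gives a stabilized beta-catenin after recombination by Pdgfb-CreER, whose recombinase is made in endothelial cells and is active in the presence of 4HT. Each genotype had 1 library, made from the pooled RNA of 3 batches of 4 to 8 retinas from 2 to 4 mice. Differences between libraries therefore cannot be set against a spread between replicates, and there are no p-values.

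The retinal pigment epithelium is a single layer of pigmented cells that lies against the outer segments of the photoreceptors. It turns the all-trans retinoid that light leaves behind back into 11-cis retinal, the chromophore of the visual pigments, and it absorbs stray light with melanin. It is not a part of the neural retina, and it stays with the choroid or comes away with the retina to a varying degree when the tissue is dissected. In RNA of a whole tissue, fewer cells of a type and less RNA per cell cannot be told apart.

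The members fall into 2 groups by role, and the upstream sequences of 3 genes of each are shown. They are shown because all 3 of the first were highest in the stabilized library. Among the 3 of the second, Tyrp1 was highest there but Tyr and Dct were not. Pmel of the second group was highest there too, but no window was found for it. Lrat of the first was also highest there and is not shown, so the sequences do not stand for whole groups. The retinoid group holds Rpe65, the isomerohydrolase of the visual cycle, Lrat, which makes its retinyl ester substrate, Rdh5, the 11-cis retinol dehydrogenase, and Rgr, a retinal-binding opsin that Müller glia also express. The melanosome group holds Pmel, the fibril protein of the melanosome, and the related enzymes Tyr (tyrosinase), Tyrp1 and Dct (dopachrome tautomerase). Best1 encodes a chloride channel of the basolateral membrane and Ttr the thyroxine and retinol transport protein transthyretin, also made by the ciliary epithelium. Each sequence is the 250 bases before the RefSeq gene start, on the strand of the gene, in GRCm38.p6, the assembly of mm10. They lie at chr3:159598931-159599180 (plus strand), chr14:37049015-37049264 (minus), chr10:128919298-128919547 (minus), chr7:87493513-87493762 (minus), chr4:80833963-80834212 (plus) and chr14:118052247-118052496 (minus). Capitals mark matches on either strand to CATGTG, the core of the M-box bound by MITF, which appears as CACATG when it lies on the opposite strand, to the related CACGTG, and to TAATCC, a core bound by OTX2 and CRX, which then appears as GGATTA.
Rpe65: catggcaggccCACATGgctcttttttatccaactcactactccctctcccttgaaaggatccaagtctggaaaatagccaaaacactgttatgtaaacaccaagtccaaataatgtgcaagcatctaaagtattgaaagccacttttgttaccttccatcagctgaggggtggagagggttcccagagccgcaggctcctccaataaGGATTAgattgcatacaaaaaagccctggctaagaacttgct
Rgr: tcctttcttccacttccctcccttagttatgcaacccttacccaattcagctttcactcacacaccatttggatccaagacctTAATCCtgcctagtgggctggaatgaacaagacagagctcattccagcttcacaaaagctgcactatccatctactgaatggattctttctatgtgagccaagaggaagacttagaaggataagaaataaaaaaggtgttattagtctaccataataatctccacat
Rdh5: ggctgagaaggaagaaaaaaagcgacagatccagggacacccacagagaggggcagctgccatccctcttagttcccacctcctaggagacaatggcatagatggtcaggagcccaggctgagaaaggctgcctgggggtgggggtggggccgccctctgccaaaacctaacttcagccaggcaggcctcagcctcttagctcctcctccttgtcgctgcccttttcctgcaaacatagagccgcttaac
Tyr: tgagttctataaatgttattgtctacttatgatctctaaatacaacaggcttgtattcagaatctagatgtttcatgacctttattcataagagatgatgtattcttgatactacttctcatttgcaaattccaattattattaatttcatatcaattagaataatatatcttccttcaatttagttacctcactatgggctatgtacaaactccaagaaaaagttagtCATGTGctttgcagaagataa
Tyrp1: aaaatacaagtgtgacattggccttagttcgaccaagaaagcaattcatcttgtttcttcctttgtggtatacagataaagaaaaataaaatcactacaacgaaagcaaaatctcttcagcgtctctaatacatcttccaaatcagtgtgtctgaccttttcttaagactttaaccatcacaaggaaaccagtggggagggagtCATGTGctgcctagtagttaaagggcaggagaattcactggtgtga
Dct: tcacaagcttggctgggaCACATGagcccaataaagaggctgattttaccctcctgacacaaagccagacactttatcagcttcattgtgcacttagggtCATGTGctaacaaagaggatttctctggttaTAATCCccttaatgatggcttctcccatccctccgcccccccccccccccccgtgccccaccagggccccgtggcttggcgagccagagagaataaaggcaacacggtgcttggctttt

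An upstream window was found for 8 of the 10 genes. GENCODE M21, whose gene coordinates are given below, places some starts elsewhere than RefSeq. By it, the Rdh5 window lies inside the gene, as does the end of the Tyrp1 window with its match. CATGTG occurred in 4 of the 8 (Rpe65, Tyr, Tyrp1 and Dct), against 12.3% of 32851 windows of the same length before mouse genes. It is the motif of MITF, a master regulator of pigment cells, so finding it here is no independent result, and the shares were not tested. TAATCC occurred in 4 of the 8 (Rpe65, Rgr, Dct and Best1), against 6.25% of all windows, and CACGTG in 0, against 6.02%. The windows of Rdh5 and Lrat held none of the searched letters. No match of one motif overlapped that of another, and a match says nothing of whether a factor binds there.

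All 10 genes had FPKM (fragment counts divided by transcript length and by library size) above 0 in every library, with lower interval bounds above 0. The intervals are those deposited with each value, at a level not given in the sources used here. Means over the 4 libraries ran up to 30.3 FPKM in Ttr. Of the 10 genes, 8 reached a mean of 1 FPKM and entered the ratios with 13150 genes in all. Lrat and Best1 stayed below, and their upper bounds did not exceed 0.445 and 0.372 FPKM. Upper bounds exceeded the value by 15.8% to 29.9% of it among the 8 genes and by up to 56.9% in Best1. In both libraries labelled NdpKO, Ndp was at 0.869 and 0.873 FPKM (stabilized knockout and knockout), against 2.35 and 2.98 FPKM in the stabilized and WT libraries. Xist was at 1.28 and 1.25 FPKM in the NdpKO libraries and at 130 and 135 FPKM in the others, so loss of Ndp and sex cannot be told apart. Deposited FPKM summed to between 405525 and 427109 per library. How many reads each library had is not stated in the labels or the table.

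Rpe65 (chromosome 3, 159599175 to 159625321, plus strand, GENCODE M21) was at 2.45 FPKM in the stabilized knockout (deposited interval 1.76 to 3.15), 3.45 FPKM in the knockout (2.55 to 4.34), 5.09 FPKM in the stabilized library (3.90 to 6.27) and 2.90 FPKM in WT (2.10 to 3.69). The stabilized library was the highest, with its interval above those of the stabilized knockout and WT and overlapping that of the knockout. The highest value was 2.07 times the lowest, the widest spread among the 10 genes.

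Rgr (chromosome 14, 37034909 to 37048964, minus strand) was at 8.65 FPKM in the stabilized knockout (6.86 to 10.4), 7.82 FPKM in the knockout (6.15 to 9.49), 11.1 FPKM in the stabilized library (9.0 to 13.3) and 7.25 FPKM in WT (5.66 to 8.83). The stabilized library was again the highest, and its interval cleared that of WT alone. Rdh5 (chromosome 10, 128913593 to 128922888, minus strand) was at 3.33 FPKM in the stabilized knockout (2.35 to 4.30), 3.26 FPKM in the knockout (2.30 to 4.23), 4.54 FPKM in the stabilized library (3.29 to 5.80) and 2.98 FPKM in WT (2.09 to 3.87). It had the same order of libraries as Rgr, with all intervals overlapping. Rdh5 overlaps Bloc1s1 on the same strand in GENCODE M21, but the deposited locus of Rdh5 overlaps that of no other gene. The deposited locus of Lrat does overlap that of another gene. Bloc1s1 was at 59.1 FPKM in stabilized retinas and 77.2 FPKM in WT, the opposite direction to Rdh5. Lrat (chromosome 3, 82892579 to 82903973, minus strand) lay between 0.245 and 0.320 FPKM and Best1 (chromosome 19, 9985174 to 10001633, minus strand) between 0.168 and 0.252 FPKM, both with the stabilized library highest and overlapping intervals.

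Pmel (chromosome 10, 128704195 to 128720238, plus strand) was at 6.02 FPKM in the stabilized knockout (4.64 to 7.40), 6.58 FPKM in the knockout (5.13 to 8.04), 8.68 FPKM in the stabilized library (6.90 to 10.5) and 4.85 FPKM in WT (3.67 to 6.04). The stabilized library was the highest and WT the lowest, and only the intervals of these stood apart. The 3' end of Pmel overlaps that of Dgka on the other strand, and the deposited locus covers both. Dgka, a diacylglycerol kinase gene, was at 2.36, 1.96, 2.85 and 2.01 FPKM in the stabilized knockout, knockout, stabilized and WT libraries, so it too was highest in the stabilized library. The labels and the table do not say how fragments in such a stretch were assigned or whether strand was kept, which makes the value of Pmel less certain.

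The 3 enzymes of melanin synthesis did not share an order of libraries. Tyr (chromosome 7, 87424771 to 87493512, minus strand) was at 4.01 FPKM in the stabilized knockout, 4.49 FPKM in the knockout, 4.26 FPKM in stabilized retinas and 5.11 FPKM in WT. WT was the highest, and the whole range of 1.28 times was the narrowest of the 10 genes. Tyrp1 (chromosome 4, 80834123 to 80851719, plus strand) was at 2.05 FPKM in the stabilized knockout, 2.22 FPKM in the knockout, 2.91 FPKM in stabilized retinas and 2.5 FPKM in WT, with all intervals overlapping. Dct (chromosome 14, 118012790 to 118052244, minus strand) was at 7.23 FPKM in the stabilized knockout (5.82 to 8.63), 10.5 FPKM in the knockout (8.64 to 12.3), 8.56 FPKM in the stabilized library (6.98 to 10.1) and 9.0 FPKM in WT (7.36 to 10.6). The knockout was the highest, and its interval just cleared that of the stabilized knockout.

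Ttr (chromosome 18, 20665280 to 20674321, plus strand), the most abundant of the 10, was at 23.4 FPKM in the stabilized knockout (19.2 to 27.5), 34.3 FPKM in the knockout (28.9 to 39.8), 33.5 FPKM in the stabilized library (28.1 to 38.8) and 30.1 FPKM in WT (25.2 to 35). The stabilized knockout was the lowest, below the intervals of the knockout and of the stabilized library but not that of WT. Among the 8 genes that reached a mean of 1 FPKM, the stabilized knockout held the highest value of 0 and the lowest of 5, and the stabilized library the highest of 5 and the lowest of 0. Among all 13150 analysed genes, 28.6% were highest and 13.7% lowest in the stabilized knockout, and 21.9% were highest and 34% lowest in the stabilized library.

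**Figure D1:**
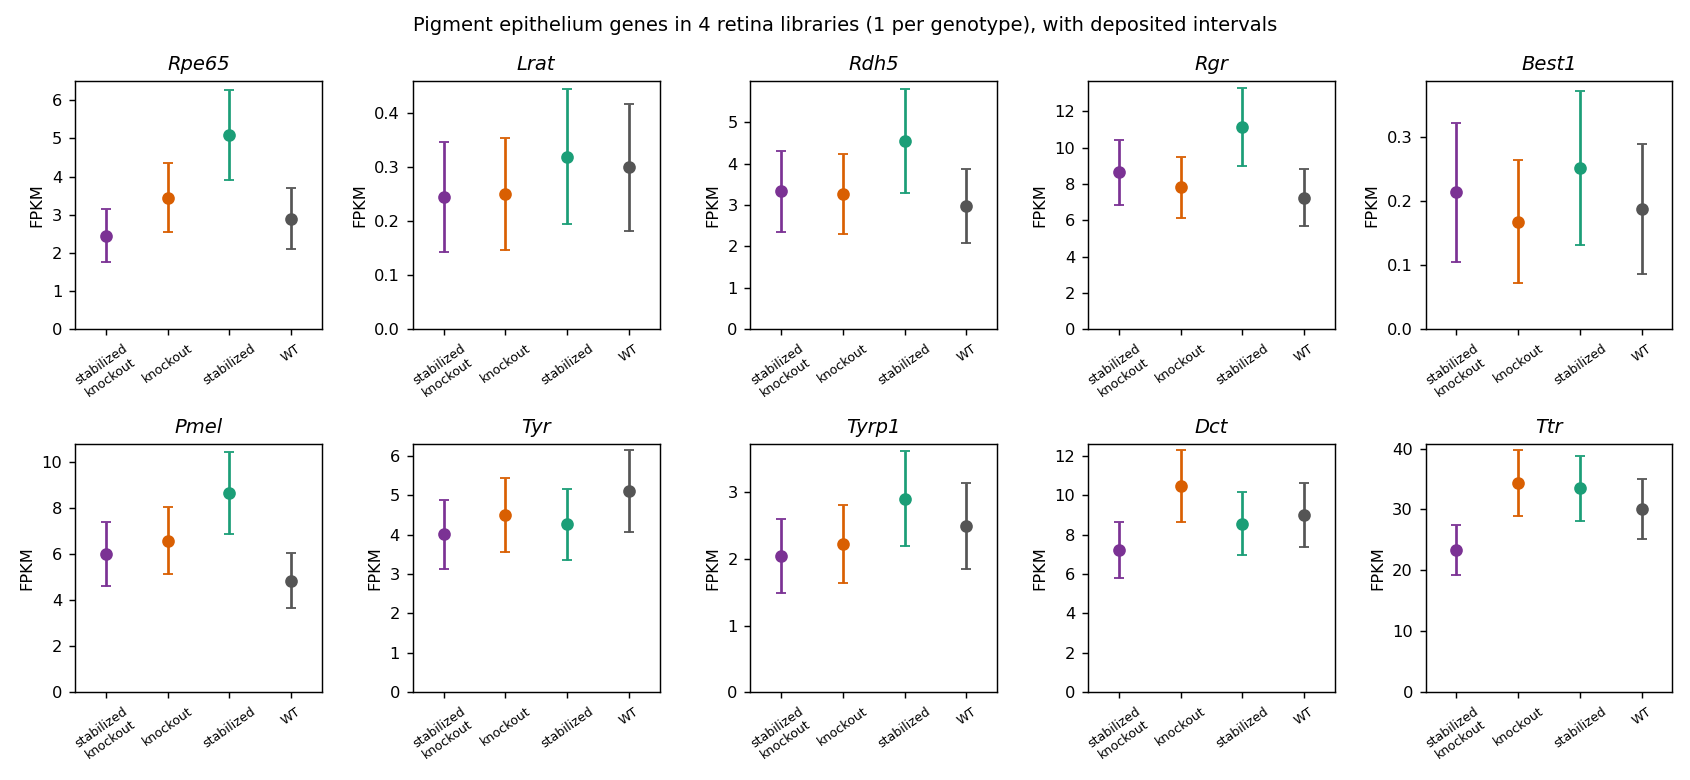
FPKM (y axis, starting at 0 in each panel) of the 10 pigment epithelium genes in the stabilized knockout, knockout, stabilized and WT libraries, 1 library each. Points are deposited values and bars the deposited intervals. Rpe65, Rgr and Pmel are highest in the stabilized library with intervals above WT, and Ttr is lowest in the stabilized knockout.

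The knockout against WT sets loss of Norrin against its presence, with unmodified beta-catenin. Of the 8 genes, 0 were 1.5-fold or more higher and 0 were 1.5-fold or more lower, against 0.966% and 1.22% of all analysed genes, and 0 had intervals apart, against 0.76%. Log2 ratios, here and below of FPKM plus 0.5, ran from -0.17 in Tyr to 0.40 in Pmel with a median of 0.15, beside a median of -0.02 over all analysed genes, of which the central 95% lay between -0.36 and 0.34. Pmel lay above that range. With 1 library in each genotype no test was made of this or the other comparisons.

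The comparison of stabilized with WT retinas asks what stabilized beta-catenin of endothelial cells changes where Norrin is present. The stabilized genotypes alone carry Pdgfb-CreER, so effects of the recombinase and of stabilized beta-catenin cannot be told apart, here or without Norrin. Of the 8 genes, 3 were 1.5-fold or more higher and 0 were 1.5-fold or more lower, against 1.67% and 1.71% of all analysed genes. The higher genes were Pmel with a log2 ratio of 0.78, Rpe65 with 0.72 and Rgr with 0.59, all with intervals apart, a state that 3.33% of all analysed genes showed. Among the 8956 genes with a mean within that of the 8, between 2.42 and 30.3 FPKM, 1.23% were 1.5-fold higher. Rgr lay just past 1.5-fold and fell short of it with a pseudocount of 1 (0.56). Rdh5 lay just inside with 0.54 and passed it with a pseudocount of 0.1 (0.59). Tyrp1 (0.19), Ttr (0.15), Dct (-0.07) and Tyr (-0.24) lay nearer to 0. The median of the 8 genes was 0.36, beside -0.02 over all analysed genes. Summed over its 4 genes, the retinoid group was at 21.1 FPKM in stabilized retinas and 13.4 FPKM in WT, a ratio of 1.57. The melanosome group was at 24.4 FPKM in stabilized retinas and 21.5 FPKM in WT, a ratio of 1.14. That rise rested mainly on Pmel, whose value is less certain. Tyrp1 was slightly higher in stabilized retinas than in WT, and Tyr and Dct were lower.

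The same question without Norrin is put by the stabilized knockout against the knockout, which shares no library with the last comparison. Here 0 of the 8 genes were 1.5-fold higher and 0 were 1.5-fold lower, against 1.76% and 0.92% of all analysed genes. Ttr (-0.55), Dct (-0.51) and Rpe65 (-0.42) had the lowest log2 ratios, and the intervals of Ttr and Dct were apart, as in 1.75% of all analysed genes. Rgr (0.14) and Rdh5 (0.02) were near 0, and the median was -0.13, beside 0.03 over all analysed genes.

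The stabilized knockout against the stabilized library sets loss of Ndp against its presence when beta-catenin is stabilized. All 8 genes had log2 ratios below 0, from -0.92 in Rpe65 to -0.08 in Tyr. Their median was -0.41, beside 0.04 over all analysed genes, of which the central 95% lay between -0.28 and 0.37. Dct (-0.23) and Tyr lay inside that range, and the other analysed pigment epithelium genes lay below it. The share of all analysed genes below 0 was not counted, so the 8 of 8 has no background share beside it. Rpe65 was the 1 gene at least 1.5-fold lower, against 0.692% of all analysed genes, and 0 were 1.5-fold higher, against 0.981%. The intervals of Rpe65 and Ttr (-0.51) were apart, as in 0.525% of all analysed genes. Pmel was at -0.49, Tyrp1 at -0.42, Rdh5 at -0.40 and Rgr at -0.35. Pmel and Ttr also passed 1.5-fold when FPKM were rescaled to the same total in each library (-0.59 each), which makes 3 genes.

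The stabilized knockout against WT sets both changes against neither. In this comparison 0 of the 8 genes were 1.5-fold higher and 0 were 1.5-fold lower, against 1.79% and 1.07% of all analysed genes, and 0 had intervals apart, against 2.48%. Log2 ratios ran from -0.36 in Ttr to 0.28 in Pmel, with a median of -0.22 beside 0.01 over all analysed genes. This comparison shares its libraries with the others, so their values are not independent.

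**Figure D2:**
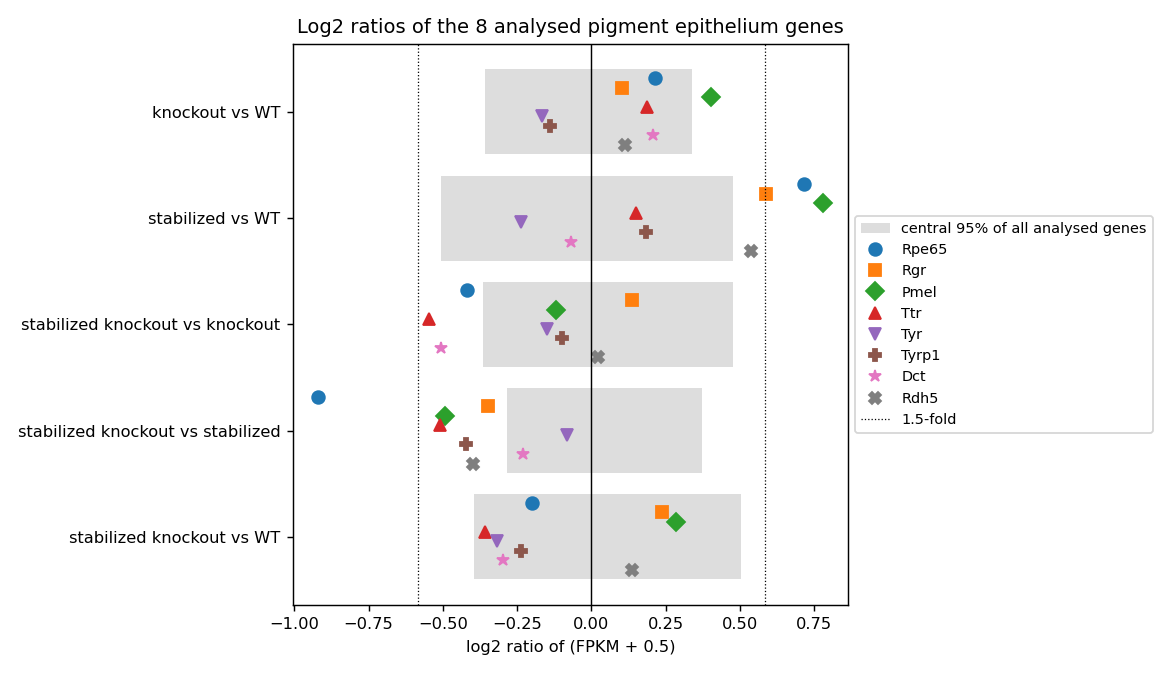
Log2 ratios of FPKM plus 0.5 (x axis) of the 8 analysed pigment epithelium genes in the 5 comparisons (rows), with 1 library on each side. Grey bars span the central 95% of all 13150 analysed genes and dotted lines mark 1.5-fold. Rpe65, Pmel and Rgr lie past 1.5-fold in the stabilized library against WT, and Rpe65 in the stabilized knockout against the stabilized library.

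The stabilization ratios were set side by side on both backgrounds, without Ndp and with Ndp intact. Rpe65 had -0.42 without Ndp and 0.72 with Ndp intact, a difference of -1.14 on the log2 scale. Pmel had -0.12 without Ndp and 0.78 with it, a difference of -0.90. Ttr had -0.55 without Ndp and 0.15 with it, a difference of -0.70. These 3 of 8 differences lay past 1.5-fold in the negative direction, against 1.27% of all analysed genes. Rdh5 (-0.51), Rgr (-0.45), Dct (-0.44) and Tyrp1 (-0.28) had smaller negative differences, and Tyr was at 0.09. The median difference was -0.48, beside 0.06 over all analysed genes. With 4 libraries these differences could not be tested, and each one mixes the values of all of them.

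**Figure D3:**
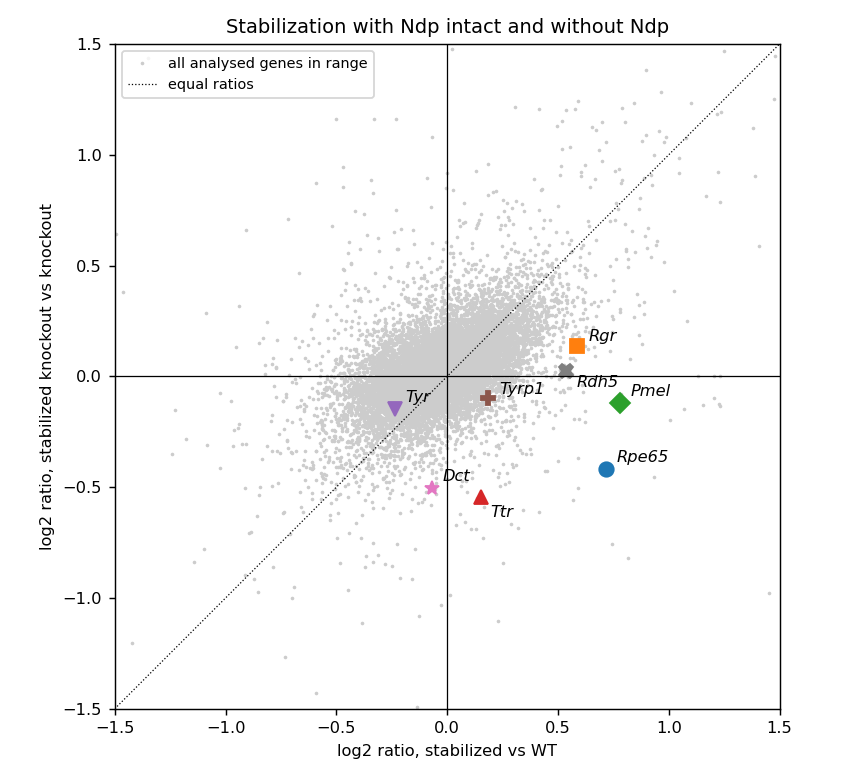
Log2 ratio of the stabilized knockout to the knockout (y axis) against that of the stabilized library to WT (x axis) for the 8 analysed pigment epithelium genes (large symbols) and the other analysed genes in range (grey). Rpe65, Pmel and Ttr lie furthest below the dotted line of equal ratios, and Tyr lies close to it.

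The genes differed in how steady their proportions to each other were. Over the 28 pairs of the 8 genes, the steadiest ratio was that of Rgr to Rdh5, which was 2.60 in the stabilized knockout, 2.40 in the knockout, 2.45 in stabilized retinas and 2.43 in WT, a span of 1.08 times. Ttr to Dct came next with a span of 1.21 times and Pmel to Rdh5 with 1.24 times. The least steady was Pmel to Tyr, which was 1.5 in the stabilized knockout, 1.46 in the knockout, 2.04 in stabilized retinas and 0.950 in WT, a span of 2.14 times. Rpe65 to Tyr followed with 0.613, 0.767, 1.19 and 0.567 in the same order, a span of 2.10 times. The ratio of Rpe65 to Rgr was 0.284 in the stabilized knockout and 0.400 to 0.457 in the other libraries. The intervals of single values, at 15.8% to 29.9%, are wide beside the smaller of these spans.

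Similarity of pattern was measured as the distance between log2 values centred over the 4 libraries, so each pattern has 4 points. Among 13149 other genes, Rdh5 was the 5th nearest to Rgr, and Rgr the 8th nearest to Rdh5. Pmel had Rdh5 as its 11th and Rgr as its 19th nearest gene, while Pmel ranked 209 for Rdh5 and 333 for Rgr. Rpe65 had Pmel as its 23rd and Rdh5 as its 36th nearest gene, while Rpe65 ranked 284 for Pmel and 4562 for Rdh5. Dct was the 34th nearest gene to Ttr, and Ttr ranked 252 for Dct. Other pairs were far apart: Dct ranked 11306 for Rgr, Rgr ranked 12202 for Dct, and Rpe65 ranked 12693 for Tyr. The neighbours named next leave out short RNA genes and provisional symbols, which the ranks above include. Outside the 10 genes, those near to Rgr included Egr1 and Gulo, at distances of 0.08 and 0.09. Gulo, the enzyme of vitamin C synthesis, was also the 2nd nearest to Rdh5, after Pcdhb13 and before Zfp703. The nearest to Pmel were Gchfr, Irx4 and Col8a1 (0.12 to 0.17), and those to Rpe65 included Hook2 and H2-M5 at larger distances of 0.31 and 0.32. The nearest to Ttr were Malat1, Smad6 and Ptcra, to Dct Btbd8, Ramp3 and Prdm9, and to Tyr Use1, Tceb1 and Rpl36al. Those near to Tyrp1 included AI506816 and Lag3.

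Most other genes of the retinoid and melanosome pathways lay within 1.5-fold of WT in stabilized retinas. Of 8 further retinoid genes analysed of 9 listed, 0 were 1.5-fold higher there than in WT. The median of these 8 genes was -0.16. Stra6, the retinol uptake receptor, was at 3.86 FPKM in the stabilized library (2.88 to 4.84) and 2.62 FPKM in WT (1.96 to 3.28), with overlapping intervals. Of the 4 visual cycle genes of photoreceptors, Rbp3 alone was 1.5-fold higher, at 421 FPKM (312 to 530) in the stabilized library and 250 FPKM (198 to 302) in WT, and its log2 ratio was 0.75. Of 11 further melanosome genes 5 were analysed, and their log2 ratios in this comparison lay between 0.11 and 0.16, with 0 past 1.5-fold. In the stabilized knockout against the stabilized library, 0 analysed genes of these 3 lists were 1.5-fold apart.

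Among 12 genes of the surface, transport and cytoskeleton of the pigment epithelium 8 were analysed. On FPKM plus 0.5, 0 of these were 1.5-fold apart in any of the 5 comparisons. Between the stabilized library and WT, 4 of the 8 had log2 ratios above 0 and 4 below, with a median of 0.05. Krt18, a keratin of simple epithelia, reached 11.3 FPKM (9.09 to 13.4) in knockout retinas, against 7.45 FPKM (5.84 to 9.06) in WT, with intervals apart and a log2 ratio of 0.56. Without the added 0.5 FPKM its ratio was 1.51, just past 1.5-fold. Cdh3, the P-cadherin gene, was below the minimum mean at 0.773 FPKM in the stabilized library (0.531 to 1.01) and 0.411 FPKM in WT (0.262 to 0.560). Krt8, Cdh1 and Kcnj13 of the same list also stayed below that mean. All 4 were highest in the stabilized library, so the even split holds for the 8 analysed genes alone. Ratios of stabilized retinas to WT without the added 0.5 FPKM were 1.88 in Cdh3, 1.80 in Krt8, 1.60 in Cdh1 and 1.11 in Kcnj13. In each of the 4 the intervals of these libraries overlapped. Of 7 regulators 5 were analysed, with log2 ratios of the stabilized library to WT between 0.05 and 0.19. Several of them, such as Otx2 and Crx, are abundant in photoreceptors. Mitf, a master regulator of pigment cells, was at 0.834, 0.812, 0.747 and 0.890 FPKM in the stabilized knockout, knockout, stabilized and WT libraries. Of 5 secreted proteins, Igfbp7, which endothelial cells also make, was 1.5-fold higher in both comparisons of stabilization. Its log2 ratios were 1.15 without Ndp, with intervals apart, and 0.80 with it. In the latter the intervals overlapped, at 24.7 to 45.3 FPKM in the stabilized library and 13.1 to 26.6 FPKM in WT. On FPKM plus 0.5, 0 of the other secreted proteins were 1.5-fold apart.

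Markers of adjoining tissues were read for the same libraries, and their part in the values above was not tested. The 5 melanocyte genes summed to 13.3 FPKM in the stabilized knockout, 11 FPKM in the knockout, 12.5 FPKM in stabilized retinas and 11.3 FPKM in WT. Of these, Sox10 was low, at 0.256 FPKM in stabilized retinas (0.143 to 0.369) and 0.0525 FPKM in WT (0.00739 to 0.0977), with intervals apart. Mlana was at 1.16, 0.227, 0.575 and 0.778 FPKM in the stabilized knockout, knockout, stabilized and WT libraries, with overlapping intervals. The 6 genes of ciliary body and iris summed to 46.6, 46.1, 36.8 and 41.5 FPKM in the stabilized knockout, knockout, stabilized and WT libraries, with Msx1 listed at 0 in the stabilized library. Optc, which encodes the vitreous protein opticin, was at 3.39 FPKM in the stabilized knockout (2.27 to 4.52) and 1.36 FPKM in WT (0.808 to 1.91), with intervals apart. The 7 fibroblast genes of choroid and sclera summed to 21.1, 13.2, 13.2 and 10.5 FPKM in the same order. Their Lum was listed at 0 in all but the stabilized library, where it was at 0.0197 FPKM, and Dcn did not exceed 0.0683 FPKM. Col3a1, a fibrillar collagen gene, was low but differed between libraries, at 1.06 FPKM in the stabilized knockout (0.788 to 1.34), 0.267 FPKM in the knockout (0.173 to 0.361), 0.544 FPKM in stabilized retinas (0.382 to 0.707) and 0.0958 FPKM in WT (0.0526 to 0.139), with intervals apart in all 5 comparisons. Col1a1, another, was at 0.261 FPKM in stabilized retinas (0.160 to 0.362) and 0.107 FPKM in WT (0.0564 to 0.158), also with intervals apart. The higher sum of the stabilized knockout rested mostly on Mgp, a mineralization inhibitor, at 16.9 FPKM against 8.00 FPKM in WT. The 8 lens genes summed to 26.3, 24.3, 21.5 and 26.6 FPKM, and 6 of them stayed below 1 FPKM in every library. Each of those 6 was higher in stabilized retinas than in WT, and the low sum of the stabilized library came from Cryab, at 16.3 FPKM against 21.4 FPKM in WT, and Crybb3, at 1.84 FPKM against 2.98 FPKM in WT.

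The cell types of the retina and its vessels were read in the same way. Müller glia genes summed to 985, 1041, 896 and 992 FPKM in the stabilized knockout, knockout, stabilized and WT libraries, and rod genes to 7186, 7604, 6490 and 6688 FPKM. The 9 endothelial genes summed to 86.2, 54.2, 88.4 and 56.8 FPKM and the 6 erythroid genes to 176, 75.6, 164 and 69.8 FPKM. Both sums were thus high in both stabilized libraries, whereas the 10 pigment epithelium genes summed to 57.6 FPKM in the stabilized knockout, 73.1 FPKM in the knockout, 79.3 FPKM in stabilized retinas and 65.2 FPKM in WT. Ttr made up much of that sum, and without it the sums were 34.2, 38.7, 45.8 and 35.1 FPKM in the same order.

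**Figure D4:**
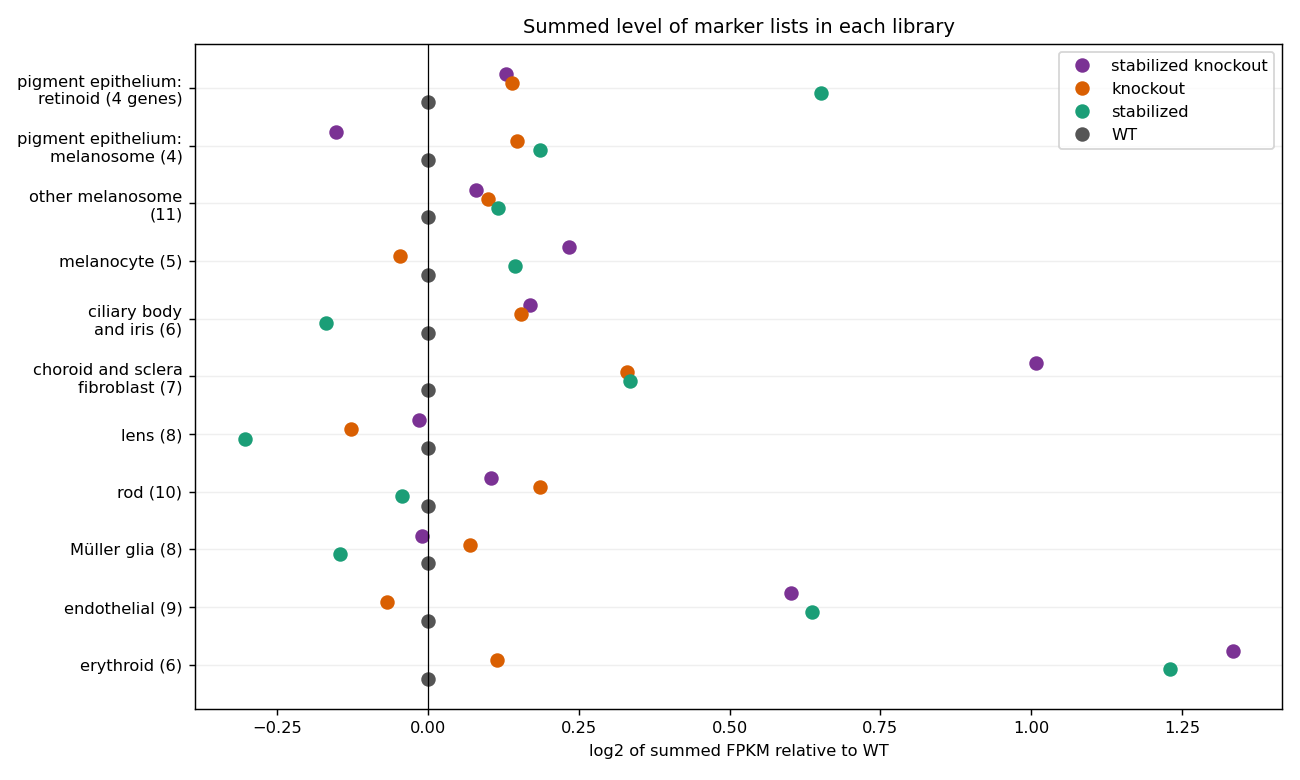
Summed FPKM of marker lists relative to WT (x axis, log2 scale) in the stabilized knockout, knockout, stabilized and WT libraries, with 1 point per library and the number of genes in brackets. The retinoid genes of the pigment epithelium are highest in the stabilized library, while endothelial and erythroid genes are high in both stabilized libraries.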

How the data were processed

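RNA of 4 genotypes was sequenced from TruSeq RNA Sample Prep Kit v2 libraries, per the labels' protocols. The authors deposited 1 table, which holds for each library the FPKM of every gene with interval bounds and a status flag. TopHat, Cuffdiff and the build mm10 are named in the submitters' processing notes. Versions, annotation and depth are not stated there or in the labels. Columns were matched to samples by the number in each sample's description.

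Log2 ratios and the counts of genes past 1.5-fold were taken on FPKM plus 0.5, which understates changes of low genes. Analysed genes had a mean of 1 FPKM or more and status OK in all 4 libraries, which 145 genes lacked in at least 1. No additive model was fitted, since it would have 1 residual degree of freedom. The arithmetic was tested on simulated libraries. The genes and the 17 lists were chosen with earlier results of these data known. The text names all 10 genes, up to 3 of each other list per direction that were 1.5-fold apart with intervals apart, and the 3 genes nearest in pattern. Short RNA genes and provisional symbols (Gm and a digit, or ending in Rik) were left out of the last. Stra6, Krt18, Krt8, Cdh3, Cdh1, Kcnj13, Mitf, Otx2, Crx, Sox10 and Mlana were named outside that rule after their values were seen. So were Lum, Dcn, Col3a1, Col1a1, Cryab, Crybb3, Msx1, Dgka and Bloc1s1. A few genes under the rule are not reported here. Alternatives were a pseudocount of 0.1 or 1, a filter at 0.5 or 5 FPKM or none, rescaling to TPM, re-centring on the median, 2-fold, intervals apart, and leaving out Ttr. Leaving out Pmel and the comparison with genes of like level were chosen after seeing the data. Coordinates came from GENCODE M21 and sequences from RefSeq (GRCm38.p6). Python 3.11.15, numpy 2.4.6, pandas 2.3.3 and matplotlib 3.10.9 were used.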

Additional observations from a re-analysis of the deposited data

Results flagged for a closer look

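In 4 of the 8 analysed genes the effect of stabilization had opposite signs on the 2 backgrounds, and in 6 the effect of losing Ndp did. Over all analysed genes the shares were 33.1% for stabilization and 49.5% for loss of Ndp, so the counts alone do not set these genes apart. Both readings give the same difference of log2 ratios, which was -1.14 in Rpe65, -0.90 in Pmel and -0.70 in Ttr, where both effects changed sign, -0.28 in Tyrp1 for stabilization, and -0.51 in Rdh5, -0.45 in Rgr and -0.44 in Dct for the loss of Ndp. For Rpe65 the ratio for loss of Ndp was -0.92 with stabilized beta-catenin and 0.22 with unmodified beta-catenin. These differences were not tested, since each genotype had 1 library, and several of the single ratios are small beside the deposited intervals.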

How the results depend on the processing

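No paired analysis was possible because each genotype had 1 library and the labels give no replicate numbers. No library could be left out for the same reason. Counts of genes past 1.5-fold moved by over 1.5 times in 4 of 55 alternative values. In the stabilized library against WT, 0 genes in place of 3 passed 2-fold, and the others lay between 2 and 4. In the stabilized knockout against the stabilized library, 0 genes in place of 1 passed with a minimum of 5 FPKM, which leaves out Rpe65, 0 passed 2-fold and 3 passed after rescaling to TPM. Medians moved by over 0.1 in 5 of 40 values. The stabilized library against WT had 0.17 with no minimum, which adds Lrat and Best1, and 0.54 without Ttr. The stabilized knockout had -0.31 against the knockout and -0.029 against WT with a minimum of 5 FPKM, and -0.52 against the stabilized library after rescaling. Sums over the 10 genes became 135, 175, 195 and 154 TPM in the stabilized knockout, knockout, stabilized and WT libraries after rescaling, and 34.2, 38.7, 45.8 and 35.1 FPKM without Ttr, with the stabilized library highest in each. The difference of stabilization ratios of Rpe65 was -1.26 with a pseudocount of 0.1 and -1.01 with 1. Without Pmel, the stabilized library had 2 of 7 genes higher than WT. The values of Lrat and Best1 are too low for their differences to be read against their intervals.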
